A study of Mus musculus with 6 samples.

Results

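The 8 genes described here, Meis1, Meis2, Meis3, Pbx2, Pbx3, Pbx4, Pknox1 and Pknox2, encode transcription factors of the TALE class, named for a short loop extension in their homeodomain. They were chosen by name, with earlier results of these data known. They are 8 of the 19938 genes with a probe set of 1 gene symbol, and each was read by 1 probe set. Their RNA was measured in mouse bone marrow cells infected with a retrovirus that expresses MN1, a coregulator of transcription overexpressed in some myeloid leukaemias, and in marrow cells given the empty vector, with 3 arrays in each group. The MN1 vector is written MSCV-MN1-IRES/YFP in the series description, and the control is MSCV-IRES-GFP in the sample labels; the reporter of the MN1 cells is GFP in the labels and YFP in the description. Cells positive for the reporter were sorted at 72 hours, in 3 independent experiments according to the series description. The sources used here do not give the strain, sex, age or number of the mice, or any enrichment of the marrow before infection. In an MSCV vector the viral long terminal repeat drives the insert, so each sorted pool holds every marrow cell type that was infected and expressed the reporter.

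TALE proteins bind DNA in pairs and in larger complexes with Hox proteins. Meis and Pknox proteins pair with Pbx proteins, a contact that helps to hold Pbx in the nucleus, and Pbx proteins in turn sharpen the DNA choice of Hox proteins. In blood, Meis1 is active in stem cells, early progenitors and megakaryocytes and is switched off in most maturing myeloid cells. It is best known as the partner of Hoxa9 in acute myeloid leukaemia, where fusions of the MLL protein keep both genes on.

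All values are log2 expression values made by RMA (robust multi-array average), so a difference of 1 is a 2-fold change. Differences are MN1 minus empty vector. They were tested with limma over all 19938 genes at a Benjamini-Hochberg adjusted p under 0.05; 3 arrays per group limit the precision, and an exact permutation of 3 against 3 arrays cannot go below p = 0.1. A probe set has its own affinity, so levels of different genes are not ranked.

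Meis1 was higher and Pbx4 was lower in every MN1 array than in every empty vector array, and these were the only members whose groups did not overlap. Pknox2 had the second largest difference, but its groups overlapped, and the other 5 members differed by less than 0.3 on the log2 scale. By limma 0 of the 8 members passed the adjusted threshold, as did 0% of all genes in either direction. At an unadjusted p under 0.05 there were 2 members, Meis1 and Pbx4, against 8.4% of all genes. The groups did not overlap for 2 of 8 members, against 16% of all genes. Both members had the smallest p that an exact permutation test allows here, 0.1. With so few members, neither count can be read as a feature of the group.

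The probe set of the mouse gene Mn1 separated the groups. It read 6.47, 6.62 and 6.08 in the MN1 arrays and 5.34, 5.41 and 4.80 in the empty vector arrays. Whether it reads RNA from the vector or from the cells' own gene was not tested. General leukocyte markers, such as Vav1 and Coro1a, were bright in every array: the mean of 8 such genes lay between 11.19 and 11.56. The mean of 12 stromal and endothelial markers lay between 6.35 and 6.48, and that of 11 T and NK cell markers between 5.30 and 5.87. Array medians over all probe sets ran from 5.82 to 6.01.

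**Figure D1:**
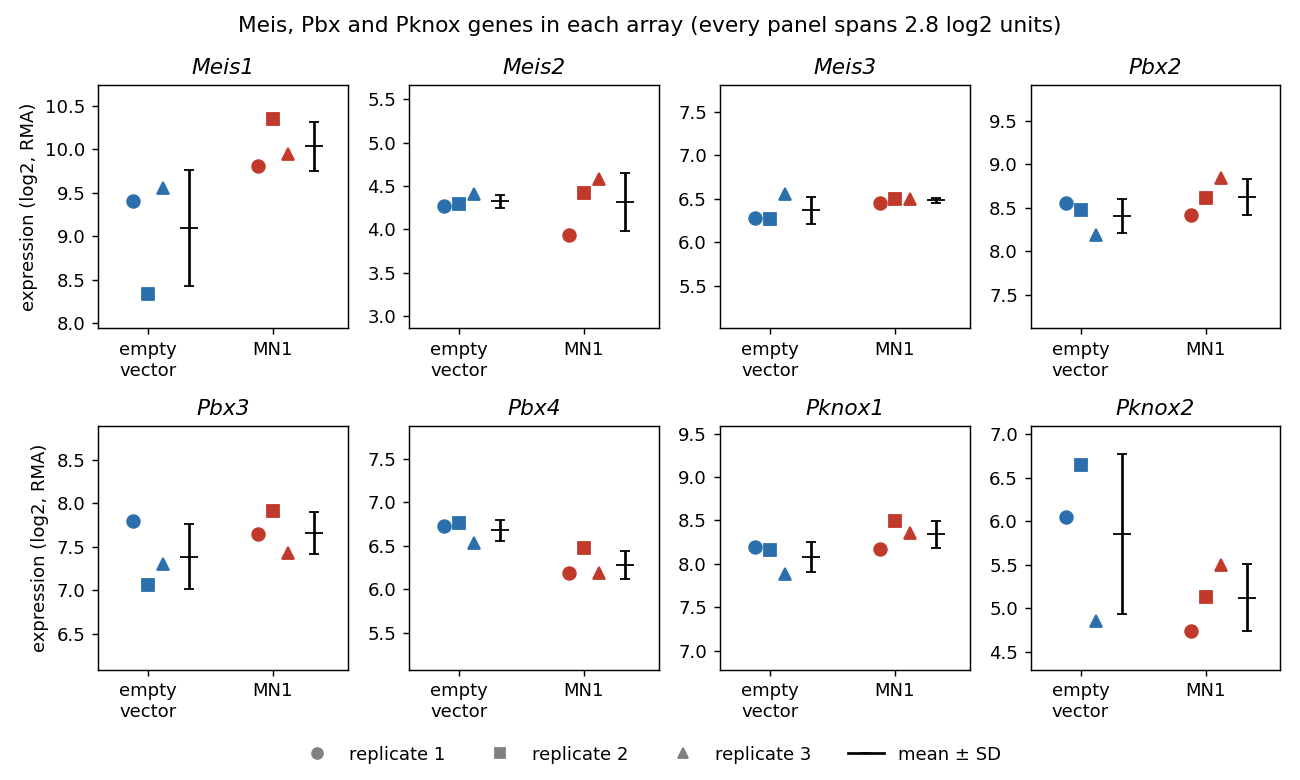
Expression (log2, RMA) of the 8 genes in each array, empty vector in blue and MN1 in red, with the replicate number as the symbol and the mean ± SD in black; every panel covers the same range of log2 units. Meis1 lies between 9.80 and 10.35 in the MN1 arrays and between 8.33 and 9.55 in the empty vector arrays, Pbx4 lies lower in all MN1 arrays, and Pknox2 is spread from 4.85 to 6.65 among empty vector arrays.

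Among the Meis genes, which encode the DNA-binding partners of Pbx, Meis1 stood out by size. It read 9.80, 10.35 and 9.95 in MN1 replicates 1 to 3 and 9.41, 8.33 and 9.55 in empty vector replicates 1 to 3. The lowest MN1 array thus exceeded the highest empty vector array by 0.25, while the empty vector arrays themselves spanned 1.22. Replicate 2 held both extremes, the lowest empty vector value and the highest MN1 value. MN1 arrays averaged 10.04 ± 0.28 (SD, n = 3) and empty vector arrays 9.10 ± 0.67 (SD, n = 3), a 1.92-fold difference. The log2 difference was 0.94 ± 0.34 (SE), with a 95% interval from 0.12 to 1.76 (limma adjusted p = 0.584, unadjusted p = 0.0305). By absolute difference Meis1 ranked 317 of 19938 genes, and by unadjusted p 994. Without empty vector replicate 2 its difference was 0.56 ± 0.19 (SE, limma adjusted p = 0.935, unadjusted p = 0.0312). That array decides the size more than any other, but not the side on which the MN1 arrays lie.

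Meis2 and Meis3 gave no such separation. Meis2, which acts in limb, brain and heart development, read 3.94, 4.42 and 4.59 with MN1 and 4.27, 4.29 and 4.41 with the empty vector, and its log2 difference was -0.01 ± 0.18 (SE). This gene was dim. Its mean over all arrays, 4.32, lay above those of 74.2% of 1027 olfactory receptor genes, a class silent in marrow that serves as a guide to background, whereas each of the other 7 members exceeded the 95th percentile of that class (5.27). For Pknox2 this held narrowly, at 5.49 over all arrays. Its empty vector mean was 5.85, but its MN1 mean, 5.12, lay below 5.27. Meis3, a less studied paralog with roles in hindbrain patterning, read 6.45, 6.50 and 6.50 with MN1 and 6.28, 6.27 and 6.55 with the empty vector. Its difference was 0.12 ± 0.11 (SE), or 0.07 without empty vector replicate 1 or 2 and 0.21 without empty vector replicate 3. With all arrays its 95% interval ran from -0.15 to 0.38, so a difference as large as that of Meis1 lies outside the interval. The highest Meis3 value was an empty vector array, replicate 3. The sign of the Meis2 difference turned when arrays were median-centred (0.02) or quantile-normalized (0.02).

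**Figure D2:**
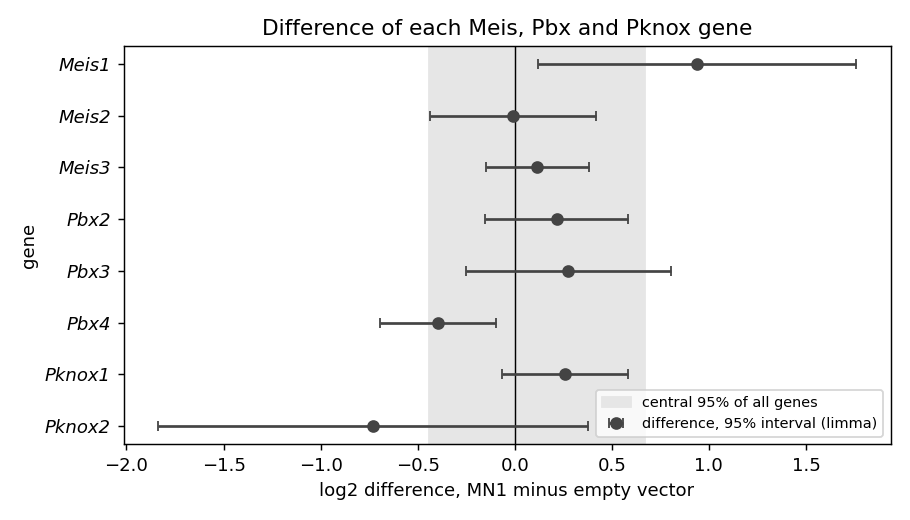
Log2 difference (MN1 minus empty vector) of each gene with its 95% interval from limma; the grey band holds the central 95% of the differences of all genes, from -0.44 to 0.67. Meis1 at 0.94 and Pknox2 at -0.73 lie outside the band, and the intervals of Meis1 and Pbx4 do not cross 0.

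The Pbx genes encode the partners that both Meis and Hox proteins contact. Pbx2, broadly expressed and dispensable on its own in mice, read 8.42, 8.61 and 8.84 with MN1 and 8.55, 8.47 and 8.19 with the empty vector. The groups overlapped, since MN1 replicate 1 lay below empty vector replicates 1 and 2, and the difference was 0.22 ± 0.15 (SE), or 0.11 without either MN1 replicate 3 or empty vector replicate 3. Pbx3, the paralog most tied to Hoxa9 and Meis1 in leukaemia, read 7.64, 7.91 and 7.44 with MN1 and 7.80, 7.06 and 7.30 with the empty vector. Its lowest value was empty vector replicate 2 and its highest MN1 replicate 2, the same arrays as for Meis1. The Pbx3 difference was 0.28 ± 0.22 (SE, limma adjusted p = 0.681), and it was 0.11 without empty vector replicate 2 and 0.48 without empty vector replicate 1. Its 95% interval, from -0.25 to 0.80, leaves both no difference and a sizeable one possible.

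Pbx4, known mainly from testis, went the other way. It read 6.19, 6.47 and 6.18 with MN1 and 6.73, 6.77 and 6.53 with the empty vector, so that all 3 MN1 arrays lay below the lowest control by a small margin. The means were 6.28 ± 0.16 (SD, n = 3) and 6.68 ± 0.13 (SD, n = 3), and the log2 difference was -0.40 ± 0.12 (SE), with a 95% interval from -0.70 to -0.10 (limma adjusted p = 0.584, unadjusted p = 0.0174). Its rank by unadjusted p was 554 of 19938, ahead of Meis1, because the arrays of each group lay close together. The difference stayed between -0.49 and -0.35 whichever array was left out. Of all genes, 10.3% had all MN1 arrays below all empty vector arrays, and 5.71% had them above.

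The Pknox genes (also called Prep) encode Meis-like partners of Pbx. Pknox1, ubiquitous and needed for normal blood formation in the embryo, read 8.17, 8.49 and 8.35 with MN1 and 8.19, 8.16 and 7.88 with the empty vector. Only 1 pair of arrays kept its groups from separating: MN1 replicate 1 lay 0.02 below empty vector replicate 1. The Pknox1 difference was 0.26 ± 0.13 (SE), with a 95% interval from -0.06 to 0.59 (limma adjusted p = 0.597), and it was 0.16 without empty vector replicate 3.

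Pknox2, better known from brain and muscle, varied most among controls. It read 4.74, 5.13 and 5.50 with MN1 and 6.05, 6.65 and 4.85 with the empty vector. Empty vector replicates 1 and 2 were the highest of all 6 arrays, while empty vector replicate 3 lay among the MN1 arrays. The means were 5.12 ± 0.38 (SD, n = 3) and 5.85 ± 0.92 (SD, n = 3), and the difference was -0.73 ± 0.46 (SE, limma adjusted p = 0.634). Without empty vector replicate 3 it was -1.23 ± 0.29 (SE, limma adjusted p = 0.508), and without empty vector replicate 2 it was -0.33. Neutrophil markers had the same arrays at the top: the mean of 15 of them, Elane and Ly6g included, was 10.92 and 11.96 in empty vector replicates 1 and 2, 8.96 in replicate 3, and between 9.26 and 10.02 in the MN1 arrays. Of these 15 markers 14 were lower with MN1, where 56.7% of all genes were lower. Their median difference was -1.06, which was -0.52 without empty vector replicate 2 and -1.74 without empty vector replicate 3. The pattern was not particular to neutrophil markers. The mean of 11 mast cell and eosinophil markers was 10.12 and 10.13 in empty vector replicates 1 and 2. It was 8.83 in replicate 3 and between 8.67 and 9.73 in the MN1 arrays. The part of either list in the Pknox2 values was not tested.

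**Figure D3:**
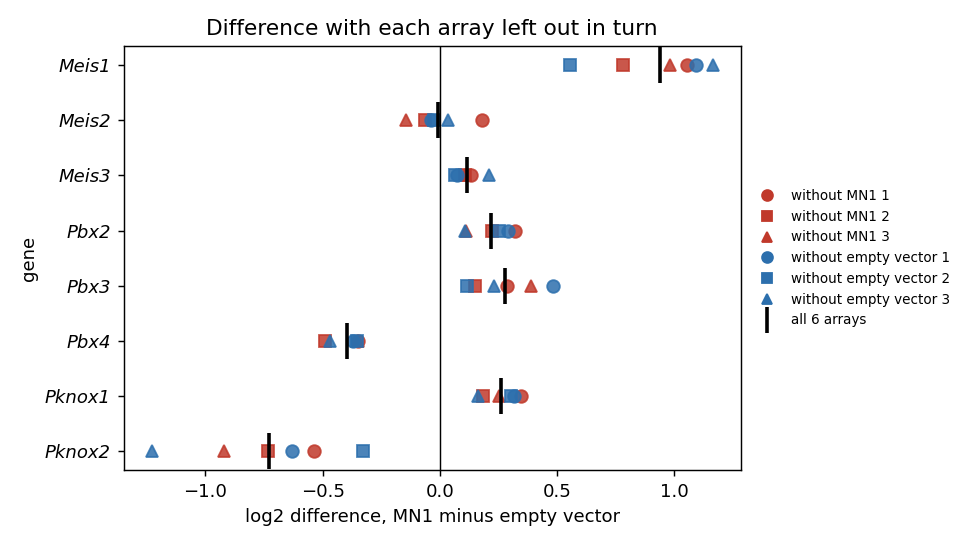
Log2 difference of each gene with all 6 arrays (black bar) and with each array left out (coloured symbols). Meis1 runs from 0.56 to 1.16, Pbx4 from -0.49 to -0.35 and Pknox2 from -1.23 to -0.33, while Meis2 falls on both sides of 0.

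In number, 5 members were higher and 3 lower with MN1, where 43.3% of all genes were higher and 56.7% lower; after median-centring the arrays it was 6 of 8 members, and 50.1% of all genes. The median difference of the 8 was 0.17, against -0.03 for all genes. Set against each of the other 7 members within an array, Meis1 gained with MN1 in every case, by 0.66 relative to Pbx3 at the least and by 1.67 relative to Pknox2 at the most. Leaving aside Meis2, which was not above the background guide, the MN1 and empty vector arrays separated for 2 of 6 ratios, those to Meis3 (a gain of 0.82 ± 0.37, SE) and Pbx4 (1.33 ± 0.45). None of the 7 passed in an exact permutation test, whose smallest possible p of 0.1 became 0.233 after adjustment over the 7 ratios. A gain in every ratio follows from Meis1 having the highest difference of the 8. The separation of the ratio to Pbx4 follows from both genes separating in opposite directions, so it adds nothing to the single genes. The ratio to Pknox2 rests on a gene whose MN1 mean, 5.12, lay below the guide (5.27). All these ratios were formed after the Meis1 values had been seen. They do not show that the other members kept their level.

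Promoter letters are shown for Meis1 and Pbx4, since their arrays did not overlap and in opposite directions. The RefSeq table (GRCm38.p6) matched 5 of the 8 genes: Meis1, Meis2, Meis3, Pbx2 and Pbx4. The stretches below are the 250 bases before the annotated start, 5′ to 3′ on the strand of the gene. For Meis1 this is chr11:19018970-19019219 on the minus strand, and for Pbx4 chr8:69832374-69832623 on the plus strand; capitals mark matches to the motifs named after them.
Meis1: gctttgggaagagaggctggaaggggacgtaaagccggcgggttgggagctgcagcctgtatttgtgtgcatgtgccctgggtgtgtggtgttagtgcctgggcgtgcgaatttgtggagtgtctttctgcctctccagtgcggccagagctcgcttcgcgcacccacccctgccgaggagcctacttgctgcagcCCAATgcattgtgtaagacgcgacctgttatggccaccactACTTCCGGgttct
Pbx4: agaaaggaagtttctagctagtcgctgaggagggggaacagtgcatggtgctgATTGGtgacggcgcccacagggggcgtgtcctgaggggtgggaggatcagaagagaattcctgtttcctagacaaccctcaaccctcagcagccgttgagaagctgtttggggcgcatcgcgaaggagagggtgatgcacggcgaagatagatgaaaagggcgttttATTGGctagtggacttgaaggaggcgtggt

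Both strands were searched for 6 motifs that do not overlap each other in these stretches. The Meis1 stretch holds the ETS-type motif ACTTCCGG, beginning 13 bases before the start, and a CCAAT box that begins 54 bases before it. The ETS-type motif stood in 2.88% of the 32851 promoter stretches of this length in the table, and among the matched members also in Meis3, 19 bases before its start. CCAAT stood in 33.8% of all stretches; Pbx4 has it at 2 places on the opposite strand, where it reads ATTGG, and Meis2 also holds it. The half-site of Meis and Pknox proteins, TGACAG (15.9% of all stretches), was in none of the 5 member stretches. Neither were the Pbx-Hox motifs TGATTGAT (0.67%) and TGATTTAT (0.837%) or the CREB palindrome TGACGTCA (1.55%). A match is a run of letters and not a bound site, and its absence concerns this window alone.

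The other genes of the pathway were taken from 4 lists, and by limma 0 of their genes passed the adjusted threshold. The other TALE homeobox genes were lower in 8 of 9 cases (median -0.18), where 56.7% of all genes were lower, and 1 was higher. Tgif1, a repressor that limits TGF-beta and retinoid signalling, differed by 0.35 ± 0.33 (SE). The Iroquois genes Irx1 and Irx4 differed by -0.43 ± 0.12 and -0.33 ± 0.12 (SE), at levels of 5.67 against 6.10 and 5.08 against 5.40. For 5 of these 9 genes the MN1 arrays lay below all controls, against 10.3% of all genes, and for 0 above, against 5.71%. Dim genes leaned lower as a class: with the dimmest 40% of genes removed, 57.2% of genes were higher, against 43.3% of all. Irx1 and Irx4 lay at percentiles 41.0 and 30.5 of all genes by mean level. After that removal only Tgif1, Tgif2, Irx1 and Irx2 were left of the list, with a median of -0.26. That median and the one of all 9 genes thus cover different genes. The part of brightness in these counts was not tested.

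Hox proteins are the main partners of Meis and Pbx on DNA. Of the 19 measured Hoxa and Hoxb genes (21 listed), 16 were lower with MN1 and 3 higher (median -0.08), where 56.7% of all genes were lower. That share, too, was smaller among brighter genes. With the dimmest 40% of genes removed, the median was -0.15 over the Hox genes that were left, which are only part of the list. The median was -0.03 without MN1 replicate 1, -0.16 without MN1 replicate 3 and -0.13 without empty vector replicate 1. The largest differences were small: -0.28 ± 0.09 for Hoxb3, -0.27 ± 0.10 for Hoxb1 and -0.24 ± 0.19 (SE) for Hoxb4. Hoxa9, added here after its values were seen because it is the usual partner of Meis1 in leukaemia, differed by 0.01 ± 0.26 (SE), at 7.62 with MN1 and 7.60 with the empty vector. The Meis1 difference thus had no counterpart of its size in any measured Hoxa or Hoxb gene.

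Regulators and cofactors of Meis and Pbx, among them the MLL complex that maintains Meis1 transcription, were nearly balanced: of 22 genes 13 were higher and 9 lower, and the median of 0.05 ran from -0.03 to 0.09 with an array left out. Mllt3, a subunit of the elongation machinery and a frequent MLL fusion partner, differed most. It read 7.90, 8.37 and 8.41 with MN1 and 7.31, 6.96 and 7.39 with the empty vector, a difference of 1.01 ± 0.18 (SE, limma adjusted p = 0.584). It was the only 1 of the 22 genes whose groups did not overlap, where 16% of all genes did not. Gfi1, a repressor of myeloid differentiation genes, differed by -0.49 ± 0.57 and Kmt2a, which encodes MLL itself, by 0.28 ± 0.27 (SE).

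Of 21 genes reported as targets of Meis1 or Hoxa9, the larger part, 17, was higher and 4 were lower (median 0.34), where 43.3% of all genes were higher. For 7 the MN1 arrays lay above all controls, against 5.71% of all genes, and for 0 below, against 10.3%. The largest differences were those of the receptor gene Flt3 (1.83 ± 0.39, SE), the stem cell factor gene Hlf (1.30 ± 0.43) and the platelet chemokine gene Pf4 (1.18 ± 0.53). Not all of the best known targets followed: the kinase-like gene Trib2 differed by -0.33 ± 0.24, the chemokine gene Ccl3 by -0.23 ± 0.27 and Myb by -0.41 ± 0.46 (SE). Trib2, Ccl3 and Myb were added after their values were seen. This list was written with earlier results on Flt3, Hlf, Cd34 and Pf4 in these arrays known, so its count is no independent evidence of a direction.

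**Figure D4:**
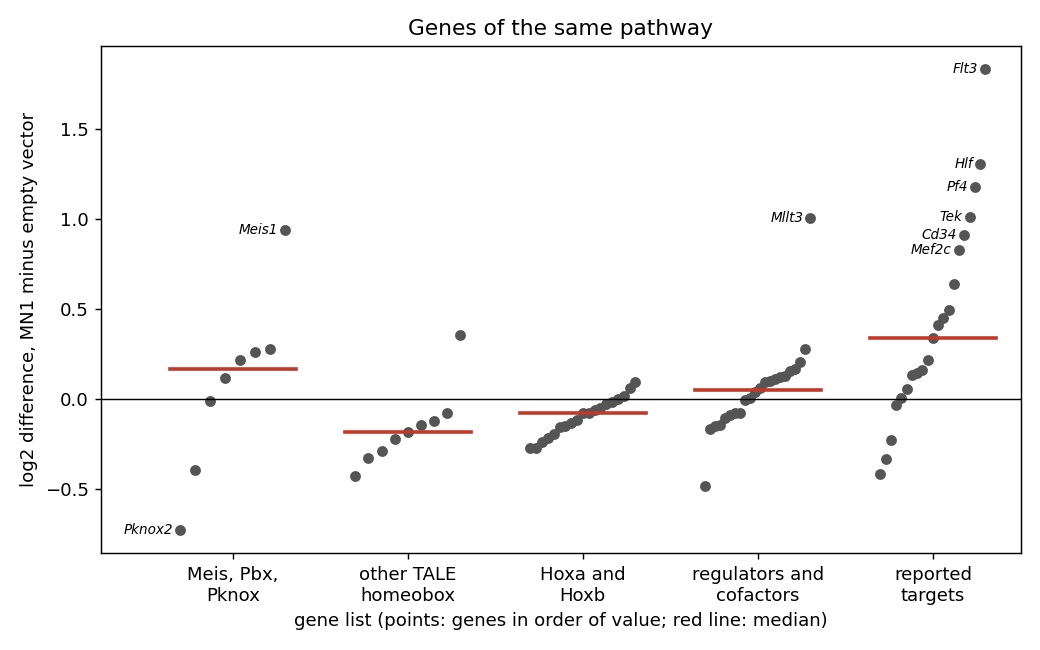
Log2 difference of each gene, in order of value within its list, with the list median in red: the 8 Meis, Pbx and Pknox genes (0.17), 9 other TALE homeobox genes (-0.18), 19 Hoxa and Hoxb genes (-0.08), 22 regulators and cofactors (0.05) and 21 reported targets (0.34). Genes beyond 0.7 in either direction are named.

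Sorted marrow is a mixture, and in bulk RNA more cells of a type and more RNA per cell cannot be told apart. Markers of cells in which Meis1 is active are given beside it, and by limma 0 of the genes in any marker list passed the adjusted threshold. Of all genes, 43.3% were higher with MN1 and 56.7% lower. All 12 measured megakaryocyte markers (17 listed) were higher with MN1, with a median of 0.92 that was 0.37 without MN1 replicate 1 and 0.53 without empty vector replicate 2. Their mean ran from 8.33 to 10.19 in the MN1 arrays and from 7.73 to 9.10 in the empty vector arrays, so the groups overlapped. Empty vector replicate 2 had the lowest mean of these markers, as it had the lowest Meis1 value, but MN1 replicate 3 was second lowest in the markers and second highest in Meis1. Stem and progenitor markers were higher in 9 of 14 cases (median difference 0.25, or 0.16 to 0.43 with an array left out), and their mean ran from 8.87 to 9.54 with MN1 and from 8.64 to 8.95 with the empty vector, again with an overlap. Their 3 extreme arrays matched those of Meis1: MN1 replicate 2 was highest, MN1 replicate 3 next and empty vector replicate 2 lowest. Flt3, Cd34, Hlf, Lmo2, Erg and Myb of this list are also among the reported targets above, as is Pf4 of the megakaryocyte list. The 4 stem and progenitor markers whose groups did not overlap, Flt3, Cd34, Hlf and Lmo2, are all shared, so these lists are not separate observations. The part of the megakaryocyte and the stem and progenitor markers in the Meis1 difference was not tested.

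The other marker lists are given by their counts, where 43.3% of all genes were higher and 56.7% lower, dim genes more often lower. Of 12 monocyte and macrophage markers 9 were higher, with a median of 0.36 and means of 9.96 to 10.50 with MN1 against 9.41 to 9.88. Of 11 mast cell and eosinophil markers 10 were lower (median -0.58), as were 8 of 9 erythroid markers (median -0.46) and 8 of 11 T and NK cell markers (median -0.32). B lineage markers were higher in 8 of 12 cases (median 0.48), stromal and endothelial markers lower in 9 of 12 (median -0.09), and the 8 general leukocyte markers had a median of -0.08. The array means of the B lineage list overlapped, at 6.05 to 6.96 with MN1 and 5.68 to 6.85 with the empty vector. Those of the stromal and endothelial list did not overlap and, unlike its median, lay higher with MN1, at 6.42 to 6.48 against 6.35 to 6.37. In that list 2 genes had all MN1 arrays above all controls and 4 had them below. With MN1 replicate 1 left out the mast cell and eosinophil median was -0.36, without MN1 replicate 3 that of monocytes and macrophages was 0.18 (0.55 without empty vector replicate 3), and without empty vector replicate 3 that of T and NK cells was -0.15. The B lineage median ran from 0.18 without empty vector replicate 2 to 0.91 without MN1 replicate 2. With the dimmest 40% of genes removed it was 0.16, over only the part of the B lineage list that was left. The leukocyte median was -0.01 without MN1 replicate 2. The stromal and endothelial median was -0.15 without empty vector replicate 1.

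**Figure D5:**
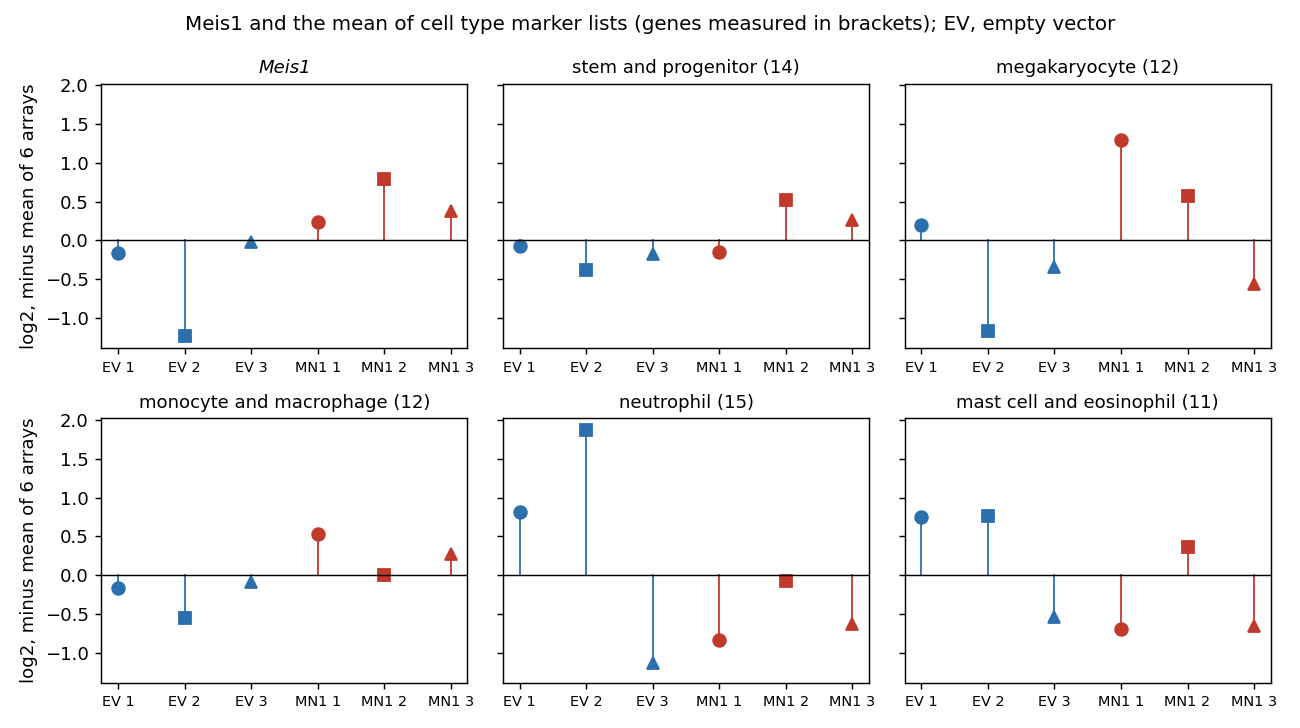
Meis1 and the mean of 5 marker lists in each array, as the log2 distance from their own mean over the 6 arrays (EV, empty vector). Empty vector replicate 2 is lowest for Meis1, stem and progenitor, megakaryocyte and monocyte markers and highest for neutrophil markers.

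Across the 6 arrays, the genes whose values were most like those of Meis1, among 2986 genes spanning at least 1 log2 unit, were Casp1, Gch1, Ly9, Abcg2 and Eng. Casp1 encodes the inflammasome protease, Gch1 the first enzyme of tetrahydrobiopterin synthesis, Ly9 a SLAM family receptor, Abcg2 the transporter behind the side population of stem cells, and Eng a TGF-beta coreceptor. Pearson's r with Meis1 was 0.97 for Casp1, 0.97 for Gch1, 0.97 for Ly9, 0.96 for Abcg2 and 0.96 for Eng. Spearman's rho was 1 for Casp1, 0.94 for Gch1, Ly9 and Eng, and 0.89 for Abcg2. With the 2 arrays farthest from the Meis1 median left out, empty vector replicate 2 and MN1 replicate 2, r over the 4 that remain was 0.90 for Casp1, 0.81 for Gch1, 0.96 for Ly9, 0.50 for Abcg2 and 0.99 for Eng. These are the top values out of many genes over few arrays that share group and cell mixture, and they are given as a description. Ly9 differed by 1.50 ± 0.45 (SE) between groups and Eng by 1.04 ± 0.29, both with a limma adjusted p of 0.584.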

How the data were processed

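The authors deposited log2 expression values, 1 per probe set, for 6 one-colour Affymetrix whole-transcript arrays, labelled from 200 ng of total RNA per the labels' protocols. RMA is named in the submitters' processing notes; the sources used here give no version or software. RMA compresses dim values, and no detection call was used. All 6 value columns were used.

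Of 35557 probe sets, 21789 carry 1 gene symbol in the platform annotation; for a gene with several, the one with the highest mean was kept, leaving 19938 genes. The probe set of each member is annotated with all its listed transcripts (2 curated RefSeq transcripts for Meis1, 6 for Meis2), so isoforms are not told apart. Groups come from the sample titles. limma 3.58.1 in R 4.3.3 was run without a block (lmFit, eBayes, two-sided, Benjamini-Hochberg over all genes) and was tested on simulated data. Genes named are the members, Mn1, up to 3 genes per list with the largest absolute difference, and the 5 most like Meis1. Outside this rule, Hoxa9, Trib2, Ccl3 and Myb were added after their values were seen. Cd34, Lmo2, Erg, Tgif2 and Irx2 are mentioned without a value, and the plot of pathway lists labels each gene beyond 0.7. The lists are the 4 pathway lists and the 10 marker lists given in the text. Members and lists were chosen with earlier results of these data known. The alternatives were 13 settings: the replicate block, 2 scalings, a filter, probe set means, a variance trend, array weights and each array left out.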

Additional observations from a re-analysis of the deposited data

How the results depend on the processing

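Under all 13 alternatives 0 members passed an adjusted p under 0.05 (limma), and Meis1, Meis3, Pbx2, Pbx3, Pbx4, Pknox1 and Pknox2 kept their direction wherever they were tested; the filter removed Meis2 and Pknox2. The Meis2 difference was 0.0235 with median-centred arrays, 0.0215 with quantile normalization, 0.0453 with array weights, and from -0.14 to 0.18 with an array left out. The cause was not tested. Over the 7 settings with all arrays Meis1 ran from 0.88 to 1.00. At an unadjusted p under 0.05, leaving out an array gave 0 to 2 members higher and 0 to 2 lower. Replicate numbers are shared by both groups, but whether they mark the independent experiments is not stated. Same-numbered arrays deviated together with r over genes of 0.13, 0.07 and 0.32, and MN1 replicate 2 lay closer to empty vector replicate 1 (0.44). For both arrays numbered 3, 0.32 was the highest r with the other group. MN1 replicate 3 had -0.50 and 0.09 with empty vector replicates 1 and 2. Empty vector replicate 3 had 0.03 and -0.42 with MN1 replicates 1 and 2. The main fit did not treat the numbers as pairs. Without a block, 1 member and 832 of all genes were higher at an unadjusted p under 0.05 (limma), and 1 member and 843 of all genes lower. With the replicate block 0 members, and 1140 of all genes, were higher at that threshold, and 1 member, and 840 of all genes, were lower. The member was Pbx4, with a difference of -0.40 (limma unadjusted p = 0.0164, adjusted p = 0.50). Meis1 then had a difference of 0.94 (limma unadjusted p = 0.0593, adjusted p = 0.504). The median of all genes moved to 0.0003 after median-centring and to 0.0442 after removal of the dimmest 40% of genes.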
